A study of Mus musculus with 4 samples.

Results

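Windows of 100 kb in which chromatin peaks of the BPA libraries sat on a higher local background than those of the control libraries were examined in CD-1 mice, in visceral fat. Of the 24639 such windows on chromosomes 1 to 19, 8645 held at least 3 peaks in each of the 4 libraries, and in 391 of these (4.52%) the lower BPA window median was at least 2 times the higher control median. These 391 windows are called raised windows here. They were selected on the background itself, so their background is a description of the selection and carries no test. The mirror rule, with the controls higher, selected 8 windows (0.0925%).

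The chromatin was profiled by Omni-ATAC-seq, in which a transposase cuts open DNA, in 2 control and 2 BPA libraries of 50,000 nuclei each. CD-1 is an outbred stock, and all animals were given as 8 weeks old. The BPA animals descended from dams that received bisphenol A, a compound with oestrogenic activity, by daily intraperitoneal injection. The dose was 50 mg/kg from embryonic day 7.5 to 13.5, and sesame oil served as the vehicle. The study describes the sampled animals as not treated themselves, with the controls bred apart as descendants of control-treated dams. The labels call the BPA animals BPAF3 whereas the study's methods name another generation, the peak list of BPA 2 was numbered as another replicate, and neither sex nor batch was labelled, so that treatment and a batch that follows it cannot be told apart.

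A peak caller compares the reads piled up at a site with a background expected from the reads around it. When no input library is used, that background comes from the same library and never drops under a genome-wide floor, so it is high where reads are dense over a broad stretch, as around active promoters. CpG islands, which are stretches rich in G+C and in the dinucleotide CG, cover the promoters of most housekeeping genes and of many developmental regulators, and they tend to be open in many cell types.

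In each library the background of a peak was divided by the lowest background of that library, and this quotient is the relative background used throughout. The lowest background was 2.85 and 2.70 overlapping reads in the controls, 1.16 in BPA 1 and 3.799 in BPA 2. This floor scales with the number of reads and with their extension in peak calling, so it is only a rough guide to depth, by which BPA 1 was the shallowest library and BPA 2 the deepest. The median relative background over all peaks of chromosomes 1 to 19 was 1.61 and 1.60 in the controls, 2.07 in BPA 1 and 1.74 in BPA 2, while the 90th percentile was 3.33 and 3.10 against 6.82 and 6.43. The excess in BPA was therefore small for the typical peak and larger in the upper tail. Promoter peaks at marker genes of cell types were then counted. Over the 13087 coding genes that start in eligible windows, promoter peaks were found for 79.4% and 77.3% in the controls, 81.2% in BPA 1 and 84.3% in BPA 2. Some lists also hold genes outside those windows. Of 12 white adipocyte genes, promoter peaks were found for 12 and 11 in the controls and 11 in each BPA library, and the summed pile-up over the lowest background was 173 and 229 in the controls against 583 and 609.9 in BPA. The same sum was also higher in BPA for lists with a promoter peak at every gene in every library, at 219 and 234 against 885 and 932 for 10 insulin signalling genes and at 376 and 395 against 1631 and 1642 for 12 Kruppel-like factors. Of 20 endothelial genes, promoter peaks were found for 9 and 7 in the controls and for 20 in each BPA library, and the summed pile-up was 108 and 122 against 821 and 798. No control peak lay at the promoters of 10 of them, including Cdh5, Pecam1, Erg and Vwf. Of 7 macrophage genes, 2 and 3 had promoter peaks in the controls, 5 in BPA 1 and 6 in BPA 2, with summed pile-ups of 17.9 and 24.1 against 140 and 139. The 3 hepatocyte genes had none in any library. The summed pile-ups of the groups overlapped for 3 lists. They were 46.3 and 32.6 in the controls against 72.7 and 32.64 in BPA for 4 mesothelial genes. For 5 epithelial genes they were 23.8 and 0 against 20.8 and 18.4, and for 7 lymphocyte and leukocyte genes 29.8 and 7.04 against 11.25 and 18.95. In bulk tissue, fewer cells of a type cannot be told apart from less open chromatin per cell, and the part of the endothelial and macrophage differences in the raised background was not tested.

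Sequences of 101 bases around summits in the 6 windows with the largest ratio are shown first, because they hold sites that the leading windows are described by. Of these summits 5 lay at promoters and 1 in an intron. Each is centred on the summit of the peak with the highest relative background in BPA among the sites where all 4 libraries had a peak. At Jag1 that site was a merged region that also held the promoter peak, and control 1 had its only summit of the region at the promoter. They are given on the plus strand of GRCm38, the assembly that mm10 names, with every CG dinucleotide in capitals.
Jag1, intron, 1869 bp from the gene start, chr2:137114601-137114701: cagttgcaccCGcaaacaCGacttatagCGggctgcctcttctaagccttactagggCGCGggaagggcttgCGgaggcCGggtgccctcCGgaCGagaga
Wtap, promoter, chr17:12991985-12992085: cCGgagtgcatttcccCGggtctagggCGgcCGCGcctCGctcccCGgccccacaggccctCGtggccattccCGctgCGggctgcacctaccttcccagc
Map3k11 and Pcnx3, shared promoter, chr19:5688728-5688828: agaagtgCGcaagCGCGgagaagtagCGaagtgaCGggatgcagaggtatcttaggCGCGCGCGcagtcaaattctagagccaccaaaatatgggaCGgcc
Rhoa and Tcta, shared promoter, chr9:108306395-108306495: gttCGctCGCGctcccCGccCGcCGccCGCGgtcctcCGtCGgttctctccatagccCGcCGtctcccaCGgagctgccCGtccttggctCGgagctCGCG
Sparcl1, promoter, chr5:104113842-104113942: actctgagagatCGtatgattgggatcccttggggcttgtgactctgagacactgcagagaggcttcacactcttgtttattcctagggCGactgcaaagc
Rpl8, promoter, chr15:76904268-76904368: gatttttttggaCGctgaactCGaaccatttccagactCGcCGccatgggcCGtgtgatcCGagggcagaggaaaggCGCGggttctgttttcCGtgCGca

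All but Sparcl1 held 9 to 17 CG dinucleotides in these 101 bases, and the Sparcl1 sequence held 2. For contrast, a site in a window raised in controls is shown, chosen after its values were seen. It lay in intergenic sequence 29423 bp from the nearest annotated start, held 1 CG, and had a relative background of 3.99 and 10.0 in the controls against 1.02 and 1.03 in BPA. Another site chosen for contrast, not shown, lay at the promoter of Ripk2 in a window raised in controls. That site held 5 CG, and its relative background was 8.54 and 6.48 in the controls against 9.52 and 11.4 in BPA.
Intergenic site, chr2:78021704-78021804: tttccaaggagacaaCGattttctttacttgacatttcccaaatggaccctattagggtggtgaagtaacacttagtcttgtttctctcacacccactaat

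Across the 391 raised windows the median relative background was 2.26 and 2.202 in the controls against 5.77 and 5.95 in BPA. In all 8645 eligible windows the medians were 1.78, 1.76, 2.17 and 1.91. The raised windows thus also lay above the typical window in the controls, by less than in BPA. The ratio of the lower BPA median to the higher control median had a median of 2.28 and reached 4.36. The smallest two-sided p of an exact permutation test of 2 libraries against 2 is 0.33, so no test between the groups was run. The undivided background gave another picture, since the median over peaks in raised windows was 6.56 and 6.12 reads in the controls, 6.45 in BPA 1 and 21.1 in BPA 2. The median of BPA 1 lay between those of the controls before division and above them after it, and 3 windows passed the rule on the undivided values while 2 passed the mirror rule. Undivided values carry the depth of each library. The floor of BPA 1 was 1.16, against 2.85 and 2.70 in the controls, which made the rule harder to pass on them. When the window medians were quantile-normalised over the libraries, 24 windows passed and 37 passed the mirror rule, so the excess of windows raised in BPA depended on the scaling. Leaving out BPA 1 gave 621 raised windows of 9716 eligible ones (6.39%), and leaving out BPA 2 gave 875 of 8741 (10%). In both settings 1 library less had to pass, and the set of eligible windows changed as well.

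**Figure D1:**
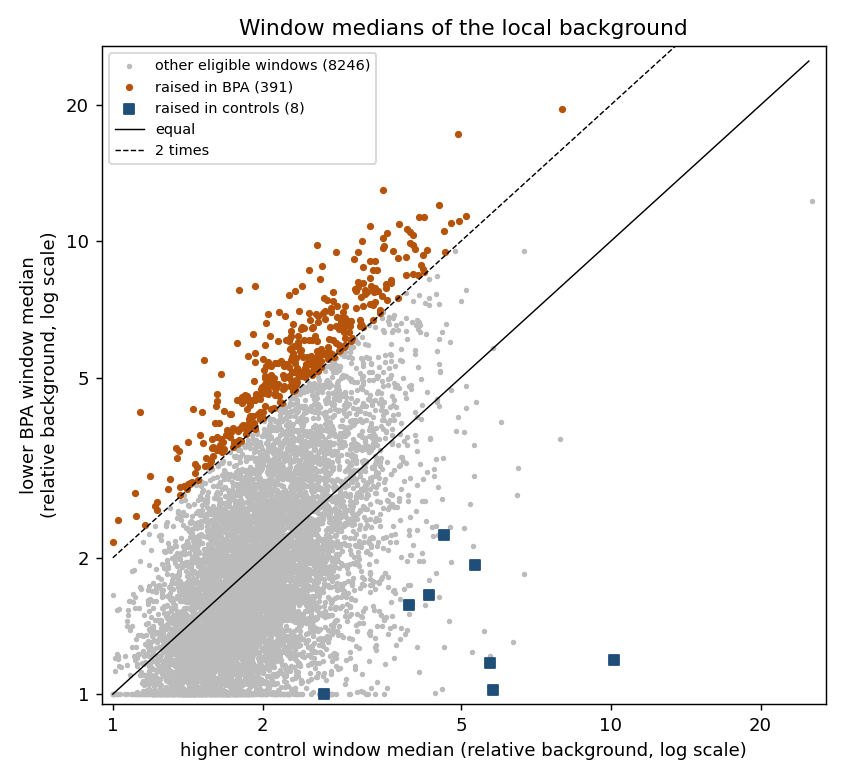
Each point is one of 8645 eligible windows of 100 kb, with the higher control median on the x axis and the lower BPA median on the y axis, both as relative background (background over the lowest background of the library) on log scales. The 391 raised windows lie on or above the dashed line of 2 times and run up to 19.6 on the y axis, and the 8 windows raised in controls lie at 2.25 or lower on it.

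The largest ratio was found at chr2:137100001-137200000, where Jag1, which encodes a ligand of Notch receptors, was the only coding gene to start. Its window medians were 1.79 and 1.66 in the controls and 7.81 and 8.61 in BPA, a ratio of 4.36. At the promoter of Jag1 itself the relative background was 8.13 and 7.62 in the controls and 19.1 and 25.1 in BPA, and the pile-up over the lowest background was 34.0 and 39.6 against 96.9 and 127. The groups did not overlap in either measure, which is a description because the window was selected on the background of its peaks. The promoter ratio of 2.35 was smaller than that of the window. The controls had 8 and 9 peaks there and BPA 6 in each library, so the window median also moved with which peaks were called. At sites shared by all 4 libraries the ratio of this window was 2.10, the lowest among the 14 leading windows with a value there. Another site shared by all libraries, 64 kb into the window, lay near the floor in every library, at 1.18 and 1.30 in the controls and 1.01 and 1.15 in BPA.

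The second window, chr17:12900001-13000000, had medians of 1.67 and 1.93 in the controls and 7.98 and 9.69 in BPA, and 6 coding genes started in it. Wtap, a subunit of the RNA methyltransferase complex, had a promoter background of 3.75 and 3.29 against 10.2 and 14.98. Tcp1, a subunit of the cytosolic chaperonin, shared its promoter peak with Mrpl18, a mitochondrial ribosomal protein gene, at 3.85 and 2.87 against 11.4 and 10.6. Acat2, a thiolase that makes acetoacetyl-CoA, stood at 3.09 and 2.51 against 7.98 and 8.74. The neighbouring Acat3 stood at 1.67 and 1.64 against 2.29 and 2.09, so that promoters of a single window differed in how far the groups lay apart.

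At chr19:5600001-5700000 the medians were 2.45 and 2.58 in the controls and 9.80 and 11.7 in BPA. Rela encodes a DNA-binding subunit of NF-kappaB, and its promoter background was 2.37 and 1.92 against 7.58 and 11.7. The shared promoter of Map3k11, a kinase of the JNK cascade, and Pcnx3 had 4.12 and 3.77 against 20.1 and 24.6. Kat5, the histone acetyltransferase also called Tip60, had 2.22 and 2.23 against 5.64 and 7.39. All of these promoters had peaks in all 4 libraries.

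At chr9:108300001-108400000 the medians were 3.49 and 3.00 in the controls and 13.1 and 13.0 in BPA. The shared promoter of Rhoa, a small GTPase that controls the actin cytoskeleton, and Tcta stood at 4.21 and 3.59 against 13.1 and 16.8. Gpx1, a glutathione peroxidase, stood at 4.62 and 3.49 against 15.1 and 15.2. Usp4, a deubiquitinase, stood at 2.77 and 2.52 against 9.22 and 10.7. The BPA values of each of these promoters lay above both control values, which is a description because the window was selected on the background of its peaks.

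The window with the lowest control background among the leading ones was chr5:104100001-104200000, with medians of 1.13 and 1.07 in the controls and 4.19 and 5.44 in BPA. Sparcl1, a matrix glycoprotein related to SPARC, had a promoter background of 1.25 and 1.72 against 6.18 and 9.49, and a pile-up over the lowest background of 6.31 and 13.7 against 44.1 and 47.7. The other coding genes there, Dspp and Dmp1 of the dentin and bone matrix, had no promoter peak in any library and a peak in BPA 2 alone, respectively. Each control had only 3 peaks in this window, the least the rule allows, against 6 and 10 in BPA. The window of Rpl8, a protein of the large ribosomal subunit, at chr15:76900001-77000000 had medians of 1.53 and 1.29 against 5.48 and 5.95.

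The other 9 windows among the 15 with the largest ratio had ratios of 3.32 to 3.49. The highest levels were at chr3:96500001-96600000, with 4.94 and 3.69 in the controls and 17.9 and 17.3 in BPA. There Txnip, an inhibitor of thioredoxin that responds to glucose, had a promoter background of 8.15 and 5.96 against 30.5 and 29.8. Pltp, the phospholipid transfer protein of plasma lipoproteins, had 2.29 and 2.34 against 11.0 and 14.0 at chr2:164800001-164900000. Tuba1a and Tuba1b, which encode alpha-tubulins, started at chr15:98900001-99000000, where the window medians were 2.64 and 2.28 against 8.80 and 9.71. Icam1, an adhesion molecule of endothelial cells and leukocytes, had a promoter background of 2.40 and 1.73 against 8.93 and 9.15 at chr9:21000001-21100000. At chr11:77700001-77800000 the control medians of 1.77 and 1.60 again rested on 3 peaks each. In each of the 15 windows both BPA medians lay above both control medians, which the selection fixes.

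**Figure D2:**
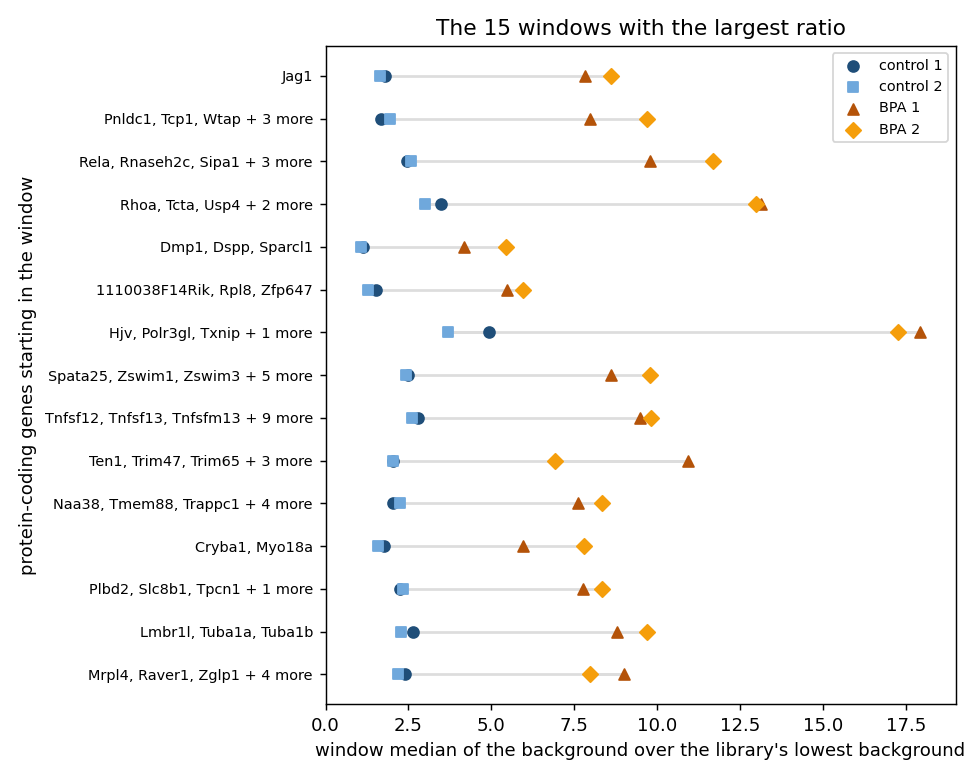
Window medians of the relative background (x axis, linear) in the 4 libraries for the 15 raised windows with the largest ratio, 1 row per window, named by up to 3 of the coding genes that start in it. The control markers sit between 1.07 and 4.94 and the BPA markers between 4.19 and 17.9, with a gap in every row.

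At the threshold, the 3 windows just inside had ratios of 2.00 and held Fbln2, an extracellular matrix gene, or no coding gene start. The 3 just outside also rounded to 2.00. They held the cluster of S100a4 to S100a9, which encode calcium-binding proteins, Zfp36l2, an RNA-binding protein gene, and Mgll, the monoacylglycerol lipase of the last step of lipolysis. The window of Mgll had medians of 2.99 and 3.05 in the controls and 7.46 and 6.10 in BPA.

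Most raised windows stood alone. Of the runs of touching raised windows, 307 were single windows, 29 were pairs, 5 were triples, 1 had 4 windows and 1 had 7. The longest, at chr19:5600001-6300000, covered 700 kb with 40 coding gene starts and 278 peaks, and its median G+C content was 50.2%. Its window medians ran from 1.71 to 3.34 in control 1 and from 2.02 to 3.496 in control 2, against 4.90 to 10.7 in BPA 1 and 4.62 to 11.7 in BPA 2. Besides Rela and Kat5 it held Capn1, a calcium-dependent protease, Ltbp3, a binding protein of latent TGF-beta, and Ehd1, which acts in endocytic recycling. The run of 4 windows, chr11:120200001-120600000, held Actg1, the gamma-actin gene, P4hb, the protein disulfide isomerase, and Arhgdia, an inhibitor of small GTPases. The third, chr10:79900001-80200000, held Gpx4, which protects membranes from lipid peroxidation, Stk11, the kinase LKB1, and Cirbp, a cold-inducible RNA-binding protein.

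The windows beside the raised ones were examined for the reach of the excess. Eligible windows 100 kb from a raised window had median ratios of 1.18, and their relative background was 1.87 and 1.84 in the controls, 2.66 in BPA 1 and 2.41 in BPA 2. At 500 kb the median ratio was 1.02, and at 1000 kb it was 0.951, which was also the median of all eligible windows. The windows next to the raised ones were outside the set by the rule itself, so a drop was fixed, though not its size.

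**Figure D3:**
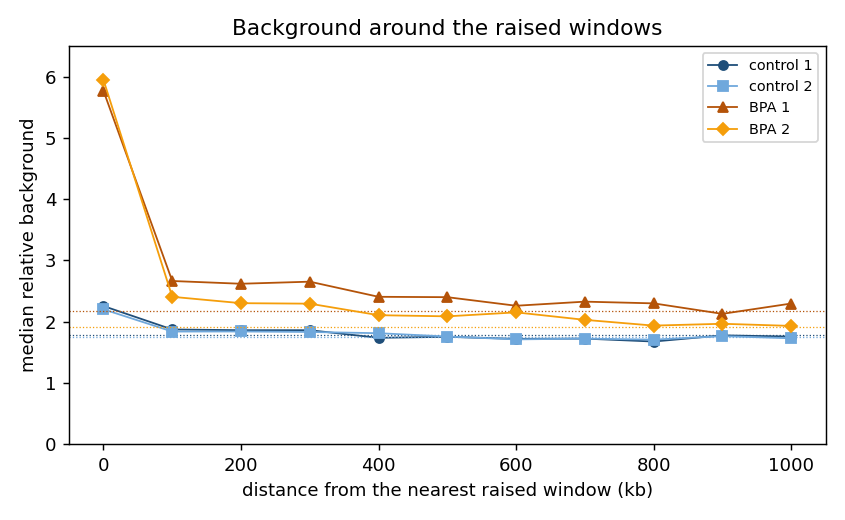
Median relative background (y axis, linear from 0) of eligible windows by distance in kb from the nearest raised window (x axis), with a line per library and dotted lines at the median of all eligible windows. Both BPA lines drop from 5.77 and 5.95 at distance 0 to 2.66 and 2.41 at 100 kb, while the control lines run from 2.26 and 2.202 to 1.87 and 1.84.

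The raised windows were spread unevenly over the chromosomes. Chromosome 11 held 62 of its 596 eligible windows as raised (10.4%), followed by chromosome 19 with 7.49% and chromosome 17 with 7.45%. Chromosome 16 had 1.46% and chromosome 18 had 1.32%. The eligible windows of chromosome 11 had a median G+C content of 46.1%, against 43.8% on chromosome 16 and 43.5% on chromosome 18.

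In G+C content the raised windows lay above the others. Their median was 48.3%, with quartiles of 45.6% and 50.3%, against 44.5% for all eligible windows, with quartiles of 42.3% and 47.1%. They held a median of 14.4 CG dinucleotides per kb against 11.0, and 28.2% of their bases were repeats against 27.2%. When eligible windows were ranked by G+C and split into quintiles of 1729, the raised ones made up 1.16%, 1.97%, 2.08%, 4.45% and 13.0% from the lowest to the highest quintile. The highest quintile, above 47.8% G+C, thus held 224 of the 391. The relative background itself followed G+C in all libraries, from 1.68 and 1.58 in the lowest quintile to 1.99 and 2.01 in the highest in the controls, and from 1.66 and 1.51 to 3.19 and 2.86 in BPA. In the lowest quintile BPA 1 lay between the controls and BPA 2 under both. The 8 windows raised in controls had a median G+C content of 44.2%. With quantile normalisation the 24 windows that passed had a median of 44.9%, near that of all eligible windows.

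Peak density was also higher in the raised windows. They held a median of 35 peaks over the 4 libraries against 27 in all eligible windows. The medians were 7 and 8 in the controls, 9 in BPA 1 and 10 in BPA 2, against 6, 7, 6 and 8. From the fewest to the most peaks, the quintiles held 3.47%, 2.43%, 2.31%, 4.51% and 9.89% raised windows. The larger shares were thus found in the upper quintiles, and the quintile with the fewest peaks held more than the middle ones. Both features were then combined. Of 654 windows in the highest quintile of both, 136 were raised (20.8%), whereas 2 of 128 with the highest G+C and the fewest peaks, 0 of 117 with the lowest G+C and the most peaks and 14 of 588 in the lowest quintile of both (2.38%) were raised.

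Gene density was higher as well. A raised window held a median of 3 starts of coding genes against 1, and 30 of the 391 (7.67%) held none, against 2775 of all 8645 (32.1%). In the quintile with the most starts 13.5% were raised, and in the quintile with the fewest 1.10% were. Of all peaks in a window, a median of 33.3% touched a promoter (500 bp either side of a gene start) in raised windows and 15% in all eligible ones. Raised windows made up 0.752% of the quintile of windows with the smallest share of promoter peaks and 11.9% of the quintile with the largest. Ties were split in genome order in these rankings.

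**Figure D4:**
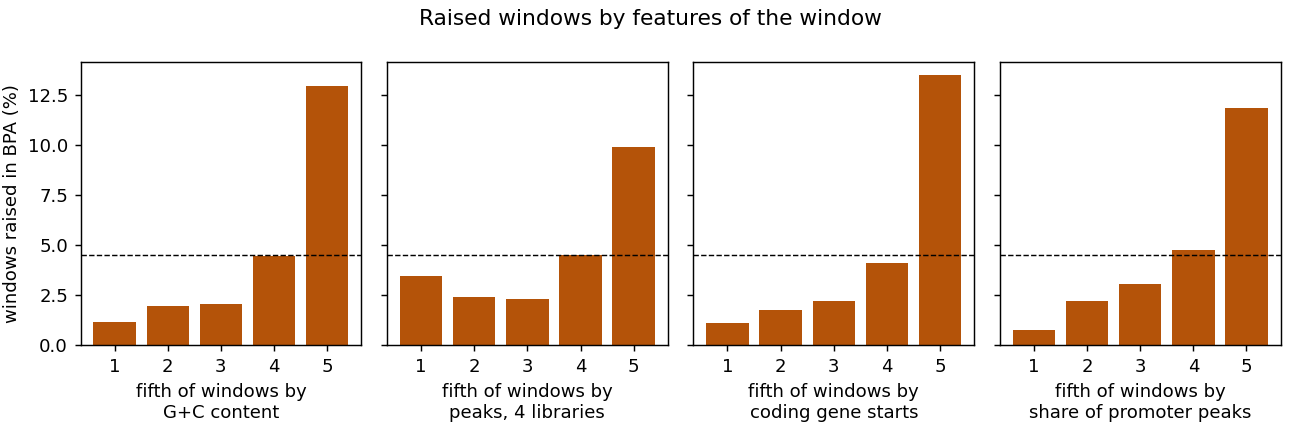
Percent of windows that were raised (y axis, from 0) in quintiles of the 8645 eligible windows by G+C content, number of peaks over the 4 libraries, number of coding gene starts and share of promoter peaks (x axes, lowest quintile left), with a dashed line at the 4.52% of all windows. The highest quintile stands at 13.0%, 9.89%, 13.5% and 11.9%.

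To separate the level of the background from the choice of peaks, sites where all 4 libraries had a peak were compared. The raised windows held 2115 of them, a median of 5 per window, and 390 windows had at least 1. Their median relative background was 2.55 and 2.40 in the controls, 6.32 in BPA 1 and 7.16 in BPA 2. The lower BPA value was at least 2 times the higher control value at 1386 of them (65.5%), while 6798 of all 32115 shared sites in eligible windows (21.2%) passed. Since the windows were selected on the same backgrounds, this excess is no test. At 0 of the shared sites in raised windows, and at 19 of all of them (0.0592%), the controls were 2 times higher. In 362 raised windows at least 1 shared site passed, and in 63 every shared site did.

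Promoters made up 1083 of the 2115 shared sites. At these the relative background was 2.88 and 2.65 in the controls and 7.33 and 8.53 in BPA, and 76.8% passed. At the other 1032 sites it was 2.13 and 2.12 against 5.17 and 5.54, and 53.7% passed. The shared promoters outside the raised windows were set beside them. At the 8958 shared promoter sites of eligible windows that were not raised it was 2.89 and 2.64 against 5.58 and 6.68, and 41.5% passed. At the other 21042 sites of those windows it was 1.81 and 1.80 against 2.15 and 2.19, and 8.05% passed. A higher relative background in BPA was thus also found at shared promoters outside the raised windows, while at the other sites outside them the medians of the groups lay closer together.

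The height of the peaks was compared in the same way. In raised windows the pile-up over the lowest background at shared sites had a median of 13.7 and 14.5 in the controls, 54.5 in BPA 1 and 51.6 in BPA 2. The lower BPA pile-up was at least 2 times the higher control pile-up at 1643 of the 2115 sites (77.7%), against 39.6% of all shared sites. Divided by the background at the same site, the pile-up was 5.39 and 6.05 in the controls and 9.14 and 7.46 in BPA. Over all shared sites these quotients were 5.42, 6.30, 9.27 and 7.59, so peaks of raised windows did not stand further above their own background than peaks elsewhere. When shared sites were ranked by their mean pile-up in the controls, the median relative background of the lowest quintile was 1.36 and 1.39 in the controls and 1.65 and 1.73 in BPA. In the highest quintile it was 3.47 and 3.21 against 6.80 and 7.98. The share of sites that passed went from 8.81% to 44.3%, and the share of promoters from 9.68% to 75.8%.

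**Figure D5:**
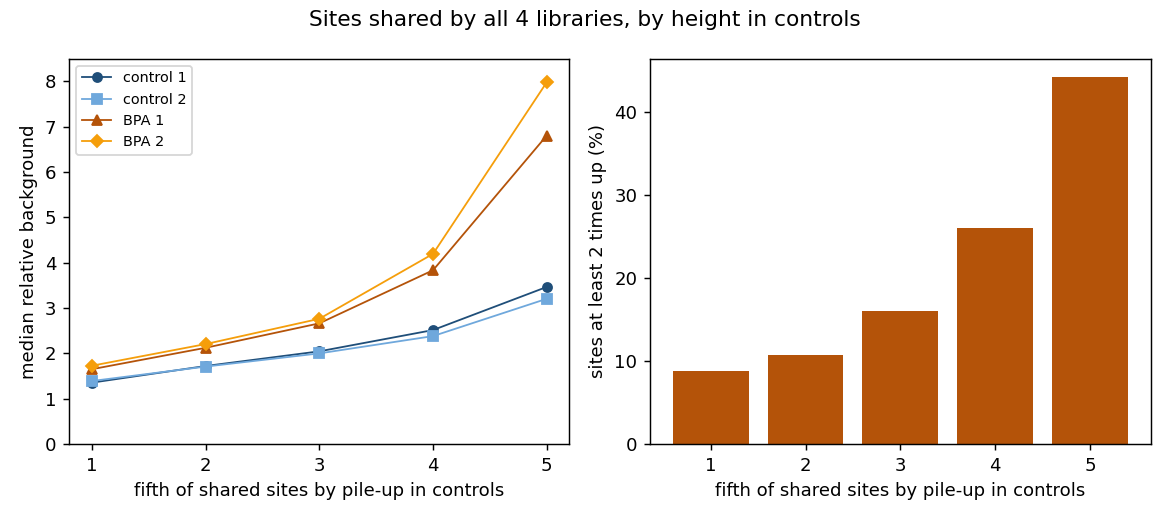
Sites shared by all 4 libraries in eligible windows, in quintiles of 6423 by their mean pile-up in the controls (x axes, lowest left). Left, median relative background per library (linear from 0), where the lines lie between 1.36 and 1.73 in the lowest quintile and BPA reaches 6.80 and 7.98 in the highest. Right, percent of sites at which the lower BPA value was at least 2 times the higher control value, from 8.81% to 44.3%.

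Even in raised windows some BPA peaks lay at the floor. The lowest relative background per window had a median of 1.16 and 1.26 in the controls, 1.54 in BPA 1 and 1.203 in BPA 2. In 27 windows the lowest BPA peak lay above the higher control median. Of 4659 merged sites in the 391 raised windows 45.4% had a peak in all 4 libraries, 13.4% in both BPA libraries only and 2.06% in both controls only, against 33.8%, 10.4% and 4.07% over eligible windows.

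The letters around shared summits were described in the same 101 bases. In raised windows their median G+C content was 60.4% against 53.5% over all shared sites. GGGCGG, the GC box bound by Sp1 and related factors, was found on either strand at 23.3% against 14.0%. Within promoters the shares were 36.1% and 33.8%, and at other sites 9.88% and 5.04%. CCGGAA, the core of many ETS factor sites, was found at 8.18% against 5.03%, TGACTCA, the AP-1 element, at 2.36% against 3.45%, and CCAAT at 12.8% against 12.5%. A match of letters is not a bound site, and the difference in GGGCGG was smaller within promoters than over all shared sites.

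The genes of the raised windows were counted next. Of 13087 coding genes that start in eligible windows, 1390 (10.6%) start in a raised window. A promoter peak was found in all 4 libraries for 78.5% of the 1390 and for 74.5% of the 13087, which are near each other. Of 152 coding genes that start in the 15 leading windows or belong to a gene list and start in a raised window, 120 had such peaks. The promoter background was at least 2 times higher in BPA for 104 of these and the pile-up was for 116, where 45.3% of all shared promoter sites passed on the background and 39.6% of all shared sites on the pile-up. Only 31.3% of all shared sites were promoters, and the pile-up share of promoters alone was not computed, so the 2 pile-up shares are unlike. The 152 genes come from windows selected on the same background, so their counts are a description.

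Genes commonly used as references for expression were counted first. Of 7 such genes in eligible windows, 4 started in raised windows, against 10.6% of all genes. Actb, which encodes beta-actin, had a promoter background of 5.46 and 4.30 in the controls and 26.4 and 31.6 in BPA. Gapdh, a glycolytic enzyme, had 4.93 and 4.85 against 12.9 and 16.9. Rplp0, a ribosomal stalk protein, had 2.60 and 2.69 against 7.47 and 7.63, and Gusb, the lysosomal beta-glucuronidase, had 2.71 and 2.41 against 7.84 and 9.39. Of 65 genes of cytosolic ribosomal proteins 14 (21.5%) started in raised windows. Rpl7a had the largest promoter ratio of them, 3.41, at 2.29 and 2.11 against 7.79 and 8.79. The smallest among those with a peak in every library were 1.60 at Rps26, with 2.40 and 2.11 against 3.82 and 4.71, and 1.82 at Rps27.

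Of 16 genes on a chosen list of steroid and other nuclear receptors, 5 (31.3%) started in raised windows, against 10.6% of all genes. Nuclear receptors are transcription factors, many of which bind steroids, retinoids or lipids, and the list also held Gper1, which is not one of them. It did not cover the family, and Nr1d1 and Nr4a3, outside the list, also started in raised windows. Esrra, the oestrogen-related receptor alpha, had a promoter background of 4.04 and 4.07 in the controls and 14.1 and 17.3 in BPA. Nr1h3, the oxysterol receptor LXR alpha, had 2.40 and 2.84 against 9.46 and 10.4. Rxra, the retinoid X receptor that pairs with many others, had 3.75 and 3.54 against 10.1 and 12.1. Thra, a thyroid hormone receptor, had 3.52 and 3.50 against 10.4 and 11.3, and Nr4a1, an early response receptor, had 2.43 and 2.301 against 5.66 and 6.32. The median window ratio over the 16 genes was 1.24, against 1.11 over all genes.

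Of 39 Hox genes, which set position along the body axis, 9 (23.1%) started in raised windows, all of them Hoxb1 to Hoxb9 in the pair of windows at chr11:96200001-96400000. These 9 genes share those 2 windows and are not independent counts. The window medians were 1.39 and 1.498 in the controls and 4.32 and 3.74 in BPA for the first, and 1.93 and 2.03 against 4.82 and 7.77 for the second. Hoxb4 had a promoter background of 2.68 and 2.54 against 8.25 and 11.7, and Hoxb7 had 1.39 and 1.33 against 5.19 and 9.41. Hoxb6 and Hoxb9 had promoter peaks only in the BPA libraries, in both of them, and Hoxb3 and Hoxb8 had none in any library.

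Of genes that mark cell types, few started in raised windows. Of 12 white adipocyte genes Pnpla2, the lipase that starts triglyceride breakdown, did, with a promoter background of 5.02 and 3.46 in the controls and 14.6 and 14.4 in BPA. Of 17 endothelial genes in eligible windows 2 (11.8%) did, near the 10.6% of all genes, although the endothelial list as a whole had more promoter peaks in BPA. They were Egfl7, a secreted factor of endothelial cells, and Sox18, a transcription factor of vessel development. Both had promoter peaks in the BPA libraries only, at 8.95 and 13.0 for Egfl7 and 9.35 and 8.98 for Sox18. Of 5 macrophage genes Cd68, a lysosomal glycoprotein, did, also with promoter peaks in BPA only, at 13.4 and 15.4. Pi16, of 8 genes of adipose progenitors and fibroblasts, and Notch3, of 7 genes of smooth muscle and pericytes, were the others. Notch3 had a promoter peak in BPA 2 only, and both control medians of its window lay at the floor of 1, on 3 and 4 peaks. The lists of brown adipocytes, lymphatic endothelium, mesothelium, epithelium, lymphocytes, Schwann cells, hepatocytes and germ cells had 1 to 7 genes each in eligible windows. None of these started in a raised window.

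The remaining lists are read against the same 10.6%. Slc2a4, the insulin-responsive glucose transporter, and Pik3r2, a regulatory subunit of phosphoinositide kinase, were 2 of 10 genes of insulin signalling. Slc2a4 had a promoter background of 2.34 and 3.02 in the controls and 5.72 and 7.22 in BPA. Fosb and Ier2 were 2 of 10 AP-1 and early response genes, and Ier2 stood at 5.50 in control 1, with no peak in control 2, against 20.8 and 23.3. Tgfbr1, a receptor kinase, was 1 of 13 genes of the TGF-beta and BMP pathway, at 4.05 and 3.64 against 11.2 and 15.2. Of 240 genes for zinc finger proteins 32 (13.3%) started in raised windows, near the share of all genes, among them Zfp36, which destabilises cytokine mRNA, at 8.63 and 7.12 against 32.3 and 37.4. Of 59 genes on the list of replication-dependent histones 1 did (H1f8). Histone genes outside that list, among them H2ax, H2aw, H2bu2, H3f4 and Macroh2a1, also started in raised windows. Of 67 olfactory receptor genes 2 did, and of 10 Kruppel-like factors, 12 genes of lipid synthesis and uptake and 3 clustered protocadherins none did.

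Promoter peaks present in a single group were few in the raised windows. Of the 1390 genes, 46 (3.31%) had promoter peaks in each BPA library but in no control, where 2.61% of all genes in eligible windows had. The opposite pattern was found for 2, where 0.321% of all genes had it. Besides Egfl7, Sox18 and Cd68, the 46 included Rasip1, a regulator of vessel tube formation, Thrsp, a lipogenic factor of adipocytes, and Actg1, all chosen after their values were seen.

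The 8 windows raised in controls were described for comparison. The pair at chr2:77900001-78100000 touched each other, with medians of 3.68 and 10.2 in the controls against 1.19 and 1.79 in BPA in the window of Cwc22, a splicing factor, and 2.99 and 5.80 against 1.02 and 1.03 in the next. The window of Ripk2, a kinase of innate immunity, at chr4:16100001-16200000 had 5.73 and 4.04 against 1.17 and 1.25. At the promoter of Ripk2 the background was 8.54 and 6.48 in the controls and 9.52 and 11.4 in BPA, so that its promoter did not follow the direction of its window. The window of Ptch1, the Hedgehog receptor, had 5.35 and 4.09 against 1.93 and 2.00.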

How the data were processed

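Omni-ATAC-seq peaks of 2 control and 2 BPA libraries of adipose tissue were analysed. The authors trimmed reads (Trim Galore), mapped them to mm10 (Bowtie2 2.3.5.1), kept uniquely mapped reads, removed duplicates (SAMtools) and called peaks on each library alone (MACS2 2.2.7.1), without pooling. Reads were mapped to a genome of another strain than CD-1. The deposited lists of 72375 to 98060 peaks gave for each peak the authors' ratio (fold of the pile-up over the local background), their −log10 p-value and −log10 q-value, and the summit's distance from the peak start. Read extension and genome size are not given in the sources used here, and no read totals are in the lists.

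Pile-up (a whole number) and background were solved from the deposited fold and p-value, assuming the Poisson model of the peak caller and a pseudocount of 1 in the fold. In every list the solution matched the p-value of 100% of peaks (relative error up to 1e-04). On simulated data 100% of 50000 pile-ups were recovered, and the window rule found 200 of 200 planted windows and 0 others among 8645. The planted rise was above the threshold and equal at all BPA peaks of a window. Peaks of a simulated window otherwise varied little around a level shared by all libraries. This checks the code, and it cannot give the rate of false calls in the real windows. The background was divided by the lowest of its library. Each peak was placed in the window of its summit, the median was taken per window, and the rule required 3 or more peaks per library and a ratio of at least 2. Peaks overlapping by 1 bp or more were merged into sites. Promoters were 500 bp either side of starts of curated RefSeq transcripts on GRCm38. Sequence, G+C content and soft-masked repeats came from the same RefSeq assembly. Computations used pandas 2.3.3, scipy 1.17.1 and numpy 2.4.6 under Python 3.11.15.

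The windows and gene lists were chosen with earlier results of these data known. The text names the 15 windows with the largest ratio, the longest runs, the windows beside the threshold, coding genes starting in a named window and list genes starting in a raised window, with exceptions said to be chosen afterwards. Of the genes the rule covers, those with a role in a result are described and the rest enter the counts, and 1 result is not reported here. No test between groups was run. Alternatives covered scaling, window size and position, peak filters, summaries, thresholds and leaving out each library.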

Additional observations from a re-analysis of the deposited data

Results flagged for a closer look

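Chromosome X was outside the rule. Of its 140 windows with at least 3 peaks in each library, 10 had a lower BPA median at least 2 times the higher control median, and 0 had the reverse. The median relative background of these 140 windows was 1.29 and 1.24 in the controls and 1.64 and 1.58 in BPA. The labels do not give the animals' sex, and the values of this chromosome entered no other comparison.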

How the results depend on the processing

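The number of raised windows depended on the scaling. Dividing by the library median of all peaks gave 117 windows raised in BPA and 16 in controls, and dividing by the median of the eligible windows gave 151 and 14. Alternatives chosen after seeing the data gave 24 and 37 with quantile normalisation, 86 and 19 with division by the median of the G+C quintile, 3 and 2 with no division, and 175 and 3 with peaks outside promoters. The cause was not tested. Other settings gave 699 in BPA with 50 kb windows, 151 and 1 with 200 kb windows, 762 and 0 with the mean of the peaks, 27 in BPA with the lowest peak, 1217 and 55 at a threshold of 1.5, 24 and 1 at a threshold of 3, and 1046 and 1 at shared sites. With 5 or more peaks 4 were raised in controls. Without each library in turn, 579 to 875 were raised in BPA and 14 to 44 in controls. The median G+C content of the raised windows was 49.6% at a threshold of 3. It came near the 44.5% of all eligible windows with no division (44.4%, 3 windows), quantile normalisation (44.9%, 24 windows) and the lowest peak (43.9%, 27 windows). With the G+C quintiles it was 43.9%, but that division takes out differences between the quintiles by design. In the other settings it was 47.4% to 49.5%, and leaving out a library gave 47.4% to 48.1%.

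The median number of coding gene starts went from 3 to 2 with 50 kb windows, the lowest peak, a threshold of 1.5, no division and peaks outside promoters, to 6 with 200 kb windows, to 3.5 at a threshold of 3 and to 5 with all RefSeq genes, and was 2 to 3 without each library. The mean over the libraries of a group of the median number of peaks was 7.5 in controls and 9.5 in BPA. It was 9 and 11 with 5 or more peaks, 5 and 5.5 with 50 kb windows, 13.5 and 17 with 200 kb windows, 5 and 4 with the lowest peak, 5.5 and 8.5 at a −log10 q-value of at least 5, 5 and 5 at shared sites, 6 and 6 with quantile normalisation, 6 and 5.5 with the G+C quintiles, and 6 and 8.5 outside promoters. In BPA alone it moved to 8.5 with 2 or more peaks, 8 with equal numbers of peaks and 5 with no division. Without each library it was 7 to 8 in controls and 8 to 9.5 in BPA.

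Of 213 recomputed ratios of the 15 leading windows, 174 were at or above 2. With the lowest peak in place of the median, 10 of the 15 fell under 1, at 0.979 (Jag1), 0.654 (Rela), 0.978 (Sparcl1), 0.995 (Rpl8), 0.274 (Txnip), 0.844 (Pltp), 0.995 (Chd3), 0.577 (Myo18a), 0.733 (Icam1) and 0.934 (another of the 15). None of the 15 reached 2 with the lowest peak, 1 of 15 did with no division (1.35 to 2.18), 7 of 15 with quantile normalisation and 14 of 14 at shared sites.

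No paired analysis was possible because the windows were described without a test between groups and the shared replicate numbers of the labels do not link animals. Depth differs between libraries and its part in the ratios was not tested, and the floor of each library carries the error of its own estimate.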
